A study of Mus musculus with 12 samples.

Results

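A set of 10 genes of interleukin-6 (IL-6) family signalling were followed in the pancreatic islets of Tg7 mice: Il6, Il11, Lif, Il6ra, Il6st, Lifr, Osmr, Stat3, Socs3 and Ccl2. They were taken by name from the Ensembl rows of the deposited table, where all 10 members were found among 37991 genes, and all 10 passed the filter on low counts. The members were selected on their levels and on their Tg7 to Wt differences in these same libraries, so the values of its members are given as a description, without p-values. The filter asked for enough reads in as many libraries as 1 group holds. A gene scarce in Wt islets could therefore pass through its Tg7 libraries alone. Ccl2 is a chemokine and not a cytokine or receptor of the family, and was kept in the set under its own name.

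Tg7 mice overexpress miR-7a2 in β-cells and were compared with wild-type (Wt) littermates. All animals were male C57BL/6 mice, either 2 weeks old (2w), before the onset of hyperglycaemia in Tg7 mice, or 12 weeks old (12w), when Tg7 mice are diabetic. The 4 groups, 2w Wt, 2w Tg7, 12w Wt and 12w Tg7, had 3 libraries each, and every library pooled islets from several mice, so the spread is that between pools and not between single mice. Whole islets were sequenced, with their endothelial, mesenchymal and resident immune cells. In such bulk RNA a larger number of cells of a type and more RNA per cell cannot be told apart. Which promoter drives the transgene is not stated in the sources used here.

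Cytokines of the IL-6 family signal through receptor complexes that contain the shared subunit gp130, encoded by Il6st. IL-6 and IL-11 first bind their own α-receptors, whereas leukaemia inhibitory factor (LIF) and oncostatin M bring together gp130 and either the LIF receptor or the oncostatin M receptor. The complexes activate Janus kinases and the transcription factor STAT3, which switches on SOCS3, an inhibitor of the same receptors. In islets this pathway is known for its part in inflammation, in the survival of β-cells and in the secretion of glucagon by α-cells.

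The sequences around the start sites of Il6, Lif and Socs3 are shown because these genes were higher in every Tg7 library than in every Wt library at both ages, as was Ccl2. Of the 10 members, 9 had an entry in RefSeq's promoter table for GRCm38.p6, and Ccl2 is named only. Each sequence runs from 250 bases before to 50 bases after the start of transcription, 5′ to 3′ on the strand of the gene. Capitals mark matches to the motifs described next. The Il6 promoter lies at chr5:30012864-30013163 on the plus strand, that of Lif at chr11:4257318-4257617 on the plus strand and that of Socs3 at chr11:117969317-117969616 on the minus strand.
Il6: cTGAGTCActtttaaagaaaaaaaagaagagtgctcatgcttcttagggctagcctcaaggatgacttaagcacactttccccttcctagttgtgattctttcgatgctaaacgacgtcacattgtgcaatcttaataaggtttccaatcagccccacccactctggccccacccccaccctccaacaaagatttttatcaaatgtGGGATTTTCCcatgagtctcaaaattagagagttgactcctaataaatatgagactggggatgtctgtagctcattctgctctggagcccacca
Lif: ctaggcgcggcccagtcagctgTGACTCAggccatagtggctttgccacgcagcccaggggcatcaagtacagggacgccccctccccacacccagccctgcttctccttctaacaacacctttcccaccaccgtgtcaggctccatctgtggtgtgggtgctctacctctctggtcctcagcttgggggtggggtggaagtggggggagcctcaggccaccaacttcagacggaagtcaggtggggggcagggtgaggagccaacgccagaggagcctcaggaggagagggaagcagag
Socs3: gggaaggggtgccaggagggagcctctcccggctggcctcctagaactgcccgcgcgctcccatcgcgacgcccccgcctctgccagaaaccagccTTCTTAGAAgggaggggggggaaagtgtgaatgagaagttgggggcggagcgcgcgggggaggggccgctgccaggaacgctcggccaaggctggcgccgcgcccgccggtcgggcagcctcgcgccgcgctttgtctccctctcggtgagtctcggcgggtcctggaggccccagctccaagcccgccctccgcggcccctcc

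A STAT, an AP-1 and an NF-kB motif were searched on both strands of all 32851 promoters of that table. The STAT motif TTCNNNGAA was in 8.3% of them and, among the 9 members with an entry, in Socs3 alone, from base -154 to base -146 before the start. The AP-1 motif TGANTCA was in 7.81% of promoters and in those of 4 members, Il6 (-249 to -243), Lif (-228 to -222), Osmr (4 to 10 after the start) and Il11 (-98 to -92 of its second entry). The NF-kB motif GGGNNTTNCC was in 4.79% of promoters and in Il6 alone, from -44 to -35. No 2 of these matches overlapped. A match describes letters in this window and was not tested as a site of binding.

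The transgenic miRNA was read against the same genes. Mature miR-7a-5p, encoded by Mir7-2 at chr7:78888295-78888317 of GRCm38.p6 on the plus strand, is shown with its seed, bases 2 to 8, in capitals, followed by the stretches of the annotated mm9 3′ UTRs of members that hold the complement GTCTTCC.
miR-7a-5p: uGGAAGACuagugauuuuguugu
Lifr 3′ UTR: aagagtttctGTCTTCCttgtgccctc
Osmr 3′ UTR: acagactccaGTCTTCCtctttagttt
Il11 3′ UTR: tgttcacagtGTCTTCCtcacttccta
Lifr, Osmr and Il11 held 1 match each, against 13.2% of 14406 tested genes with an annotated 3′ UTR, and the other 7 members held none. Lifr, with the longest 3′ UTR of the set (6320 bases), was lower in Tg7 islets, whereas Osmr was higher at 12w, so the members with a match did not move in 1 direction. The reads counted on Mir7-2 itself numbered 2 to 13 in the 6 Wt libraries and 0 to 8 in the 6 Tg7 libraries. These libraries do not measure mature miRNAs, and the row does not check the genotype.

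Before the results, 2 libraries that stood apart from their groups are described. Tg7 2w replicate 1 had a summed level of 17.7 CPM (CPM are read counts scaled to library size with TMM factors) over 7 markers of T and NK lymphocytes, against 1.17 and 1.54 CPM in the other 2w Tg7 libraries, and 62.9 CPM of the macrophage gene Lyz2, against 8.25 and 13.2 CPM. Of the other macrophage markers, Csf1r was also highest there, whereas Adgre1, Cd14, C1qa (11.6 against 20.9 and 15.1 CPM) and C1qc were lowest. The rest lay in between, with Cd163 at 0. Wt 12w replicate 4 had the highest Il6ra and Il6st of its group and the lowest summed level of the 8 β-cell markers, 195702 CPM against 364940 and 479400 CPM. Within its group Ins1, Ins2, Iapp and Ucn3 were lowest in this library. Slc2a2 (363 CPM) and Pdx1 (178 CPM) were highest there, and Mafa and Nkx6-1 lay in between. Each comparison below was therefore also made with both libraries left out, a choice made after seeing the data. Over the 12 libraries 11610697 to 17515758 reads were counted on genes, and 15961 genes were tested. Ins1, Ins2 and Iapp were abundant in every group and made up most of the sum of the β-cell markers. That sum was lower in Tg7 islets at 2w (27281 to 52275 against 109529 to 178846 CPM) and at 12w (100026 to 105367 against 195702 to 479400 CPM). Other β-cell markers were scarcer, and Mafa was at 6.95 to 8.48 CPM in 2w Tg7 and 3.54 to 4.57 CPM in 12w Tg7 islets.

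**Figure D1:**
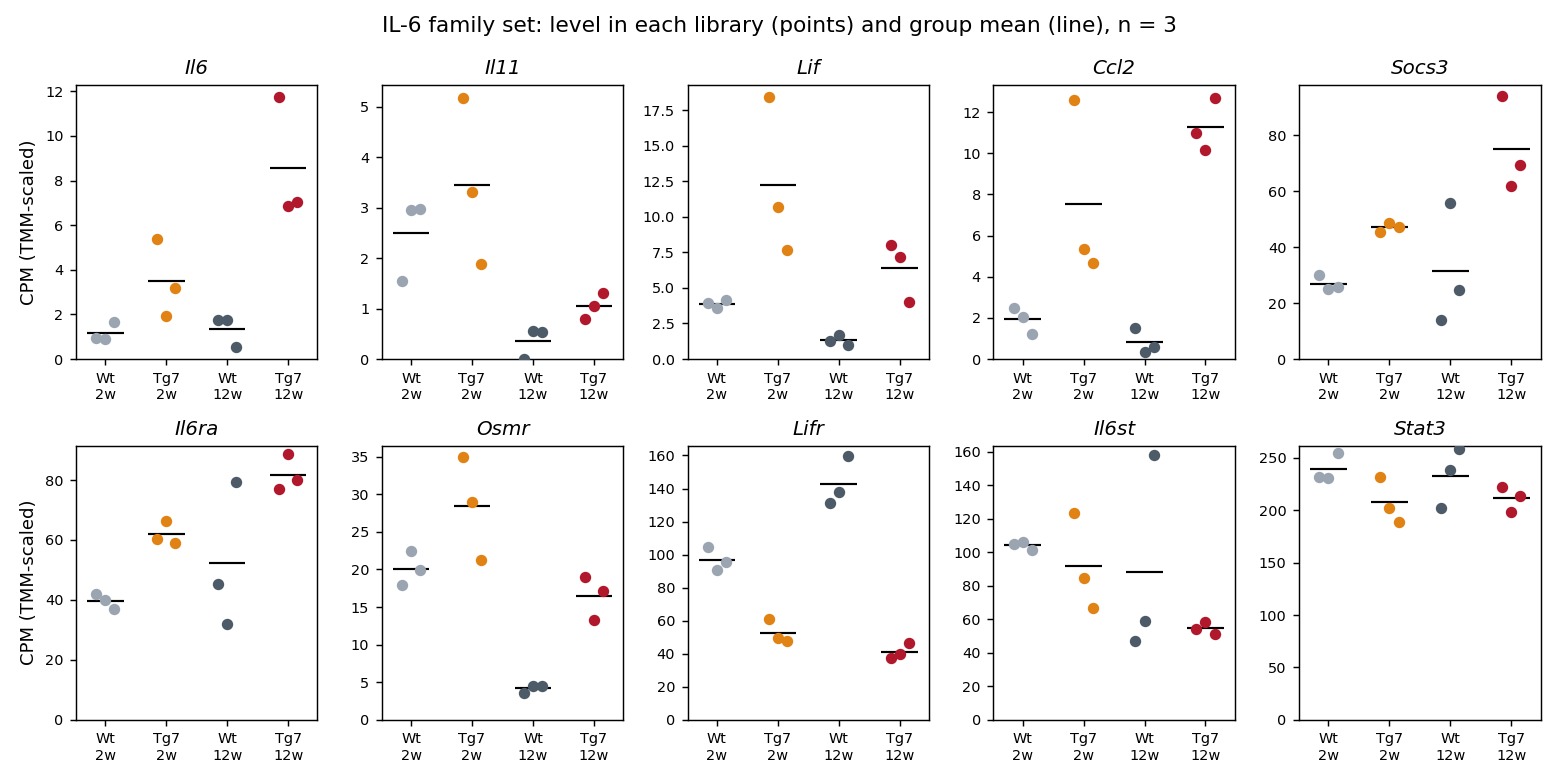
Level of the 10 genes in each of the 12 libraries, in CPM on linear axes that start at 0. Points are libraries, lines are group means (n = 3). Il6, Lif, Ccl2 and Socs3 lie higher in all Tg7 than in all Wt libraries at each age, Lifr lies lower, and Stat3 stays between 189 and 258 CPM throughout.

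The ligands Il6 and Lif were both more abundant in Tg7 islets at 2w and at 12w, while Il11 was near its lower limit of detection in adult Wt islets. Il6 (ENSMUSG00000025746, mm9 chr5:30339701-30346508, plus strand) encodes the founding cytokine of the family. In 2w Wt islets it was at 0.949, 0.884 and 1.65 CPM, and in 2w Tg7 islets at 5.39, 1.95 and 3.18 CPM. At 12w, Wt islets had 1.76, 1.75 and 0.533 CPM, and Tg7 islets 11.7, 6.86 and 7.04 CPM. The lowest Tg7 library lay above the highest Wt library at both ages, with the smaller gap at 2w. Tg7 over Wt, the log2 fold change was 1.58 ± 0.48 (SE) at 2w and 2.70 ± 0.49 at 12w, or 1.13 and 2.28 with both libraries that stand apart left out. At 2w these levels rested on 12 to 31 reads per Wt library and 30 to 101 reads per Tg7 library.

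Lif (ENSMUSG00000034394, chr11:4157560-4172517, plus strand) encodes the cytokine that binds the LIF receptor. Its levels were 3.92, 3.61 and 4.15 CPM in 2w Wt islets and 18.4, 10.7 and 7.70 CPM in 2w Tg7 islets. At 12w they were 1.26, 1.67 and 1.0 CPM in Wt islets and 8.01, 7.19 and 4.0 CPM in Tg7 islets, from 10 to 21 reads per Wt library and 70 to 142 reads per Tg7 library. Every Tg7 library was above every Wt library of its age, and both genotypes had less Lif at 12w than at 2w on average. Its log2 fold change was 1.65 ± 0.34 at 2w and 2.29 ± 0.39 at 12w, or 1.23 and 2.10 without both libraries that stand apart. The 12w level over the 2w level gave -1.57 ± 0.39 for Wt and -0.94 ± 0.33 for Tg7, where the highest 12w library (8.01 CPM) overlapped the lowest 2w library.

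Il11 (ENSMUSG00000004371, chr7:4724669-4734460, minus strand) encodes interleukin-11, a cytokine known for its action on fibroblasts. It was at 1.54, 2.95 and 2.98 CPM in 2w Wt islets and at 5.18, 3.31 and 1.89 CPM in 2w Tg7 islets, which overlapped. At 12w it was at 0, 0.556 and 0.533 CPM in Wt islets, where the 0 allows a level of up to 0.378 CPM (3 counts), and at 0.789, 1.05 and 1.32 CPM in Tg7 islets. The 12w groups did not overlap, but they rested on 0 to 8 reads per Wt library and 14 to 23 reads per Tg7 library. The log2 fold change was 0.47 ± 0.52 at 2w and 1.38 ± 0.65 at 12w, neither past the threshold of the fit (adjusted p below 0.05), and the fall from 2w to 12w in Wt islets was -2.61 ± 0.64.

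Of the receptors, Lifr was lower in Tg7 islets at both ages, and Osmr was past the threshold on the higher side at 12w only. Il6ra was modestly higher without passing the threshold, and the level of the shared subunit Il6st depended on 1 Wt library. Lifr (ENSMUSG00000054263, chr15:7079559-7147489, plus strand), the signalling receptor for LIF, was at 105, 90.5 and 95.2 CPM in 2w Wt islets and at 60.7, 49.4 and 47.8 CPM in 2w Tg7 islets. The 12w levels were 131, 138 and 160 CPM in Wt islets and 37.1, 39.7 and 46.3 CPM in Tg7 islets. It was the only member lower in every Tg7 library than in every Wt library at both ages, and with age it was higher in Wt and lower in Tg7 islets, without overlap in either genotype. Its log2 fold change was -0.88 ± 0.13 at 2w and -1.80 ± 0.14 at 12w, and -1.0 and -1.71 without both libraries that stand apart. The effect at 12w minus that at 2w was -0.92 ± 0.19.

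Osmr (ENSMUSG00000022146, chr15:6763577-6824313, minus strand), the receptor subunit that pairs with gp130 to bind oncostatin M, was at 17.9, 22.4 and 20.0 CPM in 2w Wt islets and at 34.9, 29.0 and 21.3 CPM in 2w Tg7 islets. By 12w it had 3.53, 4.52 and 4.47 CPM in Wt islets and 18.9, 13.3 and 17.2 CPM in Tg7 islets. The 2w groups overlapped through the third Tg7 library, whereas at 12w the groups lay far apart. As a log2 fold change this was 0.50 ± 0.19 at 2w and 1.96 ± 0.22 at 12w (0.32 and 2.01 without both libraries that stand apart), and the effect at 12w minus that at 2w was 1.46 ± 0.29. Both genotypes had less Osmr at 12w than at 2w, by -2.25 ± 0.22 in Wt islets and -0.79 ± 0.20 in Tg7 islets, so that 12w Tg7 islets held about the level of 2w Wt islets (16.5 ± 2.87 against 20.1 ± 2.24 CPM, mean ± SD, n = 3).

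Il6ra (ENSMUSG00000027947, chr3:89673246-89717084, minus strand), the α-receptor that binds IL-6, was at 41.9, 40.1 and 37.0 CPM in 2w Wt islets and at 60.2, 66.4 and 59.0 CPM in 2w Tg7 islets. In the older islets it had 45.2, 32.1 and 79.3 CPM in Wt and 77.0, 88.6 and 79.9 CPM in Tg7 islets. The 2w groups were separate, and at 12w the overlap came from Wt replicate 4 alone. The log2 fold change was 0.64 ± 0.23 at each age, past the threshold at neither age in the main fit, and it was 1.10 at 12w without that library.

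Il6st (ENSMUSG00000021756, chr13:113265216-113297068, plus strand), which encodes gp130, was at 105, 106 and 101 CPM in 2w Wt islets and at 124, 84.8 and 66.6 CPM in 2w Tg7 islets. The 12w libraries had 47.0, 59.2 and 158 CPM in Wt islets and 54.4, 58.4 and 51.4 CPM in Tg7 islets. Genotypes overlapped at both ages. Its log2 fold change was -0.18 ± 0.34 at 2w and -0.69 ± 0.34 at 12w, and the latter became 0.04 without Wt replicate 4.

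The transducer Stat3 did not separate the groups, whereas its target and inhibitor Socs3 was higher in Tg7 islets. Stat3 (ENSMUSG00000004040, chr11:100746412-100800854, minus strand) was at 232, 231 and 255 CPM in 2w Wt islets and at 232, 202 and 189 CPM in 2w Tg7 islets. The 12w levels were 202, 239 and 258 CPM in Wt islets and 222, 198 and 214 CPM in Tg7 islets. The fitted log2 difference of Stat3 was -0.20 ± 0.12 at 2w and -0.14 ± 0.12 at 12w, which was 0.29 with library size alone as the scale. These are transcript levels and say nothing of the phosphorylated protein.

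Socs3 (ENSMUSG00000053113, chr11:117827393-117831361, minus strand) was at 30.0, 25.1 and 25.7 CPM in 2w Wt islets and at 45.4, 48.6 and 47.2 CPM in 2w Tg7 islets. At 12w it was at 13.9, 55.8 and 24.8 CPM in Wt islets and at 93.9, 61.7 and 69.4 CPM in Tg7 islets. Groups were separate at both ages, but the 12w Wt libraries spread widely. The highest, Wt 12w replicate 2, also had the highest summed level of 15 stress and immediate early genes, 1353 CPM against 540 to 779 CPM in the other 11 libraries. Most of that sum came from Jund (517 CPM) and Nr4a1 (434 CPM). Fosb, Hspa1a and Hspa1b were also highest in this library, but no other gene of that list was. The part of tissue handling in the Socs3 level of this library was not tested. The log2 fold change was 0.81 ± 0.34 at 2w and 1.24 ± 0.34 at 12w, and the 12w value lay between 0.88 and 1.93 when single libraries of that age were omitted.

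Ccl2 (ENSMUSG00000035385, chr11:81849073-81850955, plus strand) encodes a chemokine that attracts monocytes. It was at 2.49, 2.06 and 1.22 CPM in 2w Wt islets and at 12.6, 5.33 and 4.67 CPM in 2w Tg7 islets. At 12w it was at 1.51, 0.318 and 0.60 CPM in Wt islets, from 12, 4 and 9 reads, and at 11, 10.2 and 12.7 CPM in Tg7 islets. Groups were separate at both ages, and the 12w difference had the largest log2 fold change of the set, 3.92 ± 0.52. At 2w it was 1.97 ± 0.45, and without both libraries that stand apart the values were 1.38 at 2w and 3.77 at 12w.

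**Figure D2:**
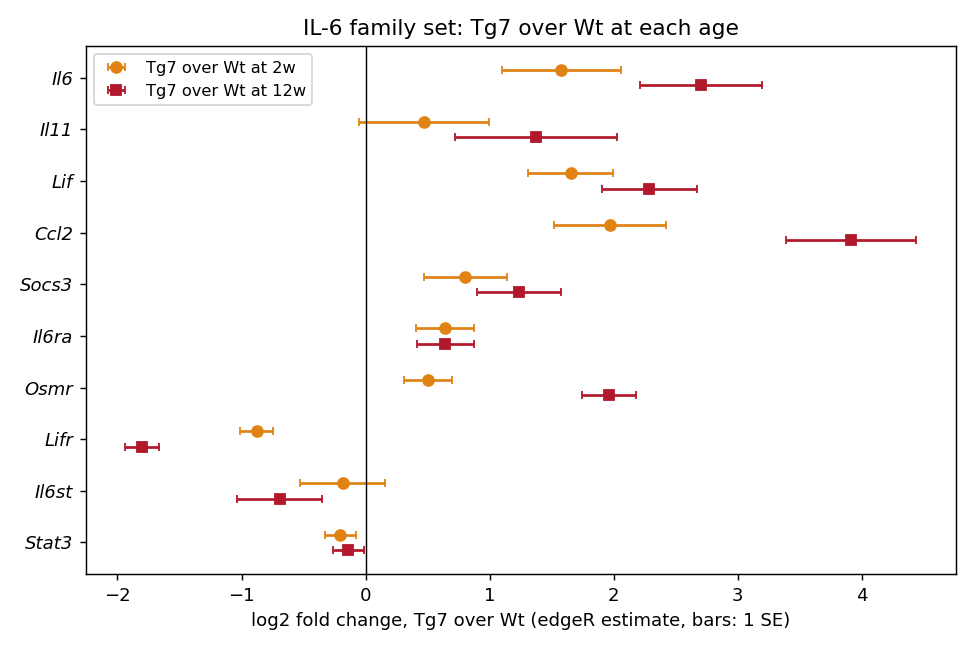
Log2 fold change of Tg7 over Wt for the 10 genes at 2w (circles) and 12w (squares), with bars of 1 SE from the edgeR fit. Ccl2, Il6 and Lif lie farthest to the right, Lifr lies on the left at both ages, and Osmr moves from 0.50 to 1.96.

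At 2w, 3 members (Il6, Lif, Ccl2) were past the threshold on the higher side and 1 (Lifr) on the lower side, where 6.07% and 4.55% of all tested genes were. At 12w, 5 members (Il6, Lif, Osmr, Socs3, Ccl2) were on the higher and 1 (Lifr) on the lower side, where 12.5% and 11.2% of all tested genes were. Groups did not overlap for 5 higher members and 1 lower member at 2w, beside 17.8% and 18.1% of all tested genes, and for 6 and 1 at 12w, beside 20.7% and 16.3%. These counts restate the choice of the members and carry no test. At 2w Il6 was no longer past the threshold without any 1 of Wt replicates 1, 2 and 3 or Tg7 replicates 1 and 3 (1.14 to 1.92), and Ccl2 without Wt replicate 3, and at 12w Socs3 without Tg7 replicate 1 (1.06). The median log2 fold change of the set was 0.57 at 2w and 1.31 at 12w, and that of all tested genes 0.03 and -0.01.

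The difference between ages was past the threshold for Osmr on the higher and Lifr on the lower side, where 0.871% and 0.307% of all tested genes were. Osmr left that side without any 1 of 5 libraries (1.33 to 1.66 over all 12 left out in turn) and Lifr without any 1 of 6 (-1.01 to -0.79). Between 2w and 12w in Wt islets, Lifr was past it on the higher side and Il11, Lif and Osmr on the lower side, beside 7.9% and 7.91% of all tested genes. In Tg7 islets Osmr alone was past it, on the lower side, beside 7.02% and 6.01% of all tested genes on the higher and lower side. The value of Lifr in Wt islets was no longer past the threshold without Wt 2w replicate 2 (0.51) or 3 (0.55), with library size alone (0.18) or with the libraries of the contrast alone (0.53). Il11 in Wt islets left its side without Wt 2w replicate 3, and Osmr in Tg7 islets without Tg7 2w replicate 1 or Tg7 12w replicates 2 or 3. The contrasts at each age and those between ages share libraries.

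Levels of different genes were compared as CPM per kilobase of exon. In 2w Wt islets the order from the top was Stat3 (25.1), Il6st (20.0), Il6ra (11.9), Lifr (9.38), Socs3 (9.31), Osmr (4.15), Il11 (1.89), Ccl2 (1.69), Il6 (1.07) and Lif (0.895). Lifr and Socs3, Il11 and Ccl2, and Il6 and Lif differed by less than the larger SD of each pair. In these islets the signalling components were thus more abundant per length than the 3 cytokines.

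In 12w Wt islets the 5 genes at the top, Stat3 (24.5), Il6st (16.9), Il6ra (15.6), Lifr (13.9) and Socs3 (10.9 CPM per kilobase), had neighbours within their spread, and so had the 5 below them, Il6 (1.24), Osmr (0.863), Ccl2 (0.712), Lif (0.301) and Il11 (0.275). In 2w Tg7 islets the order was Stat3 (21.8), Il6ra (18.5), Il6st (17.6), Socs3 (16.3), Ccl2 (6.62), Osmr (5.88), Lifr (5.10), Il6 (3.23), Lif (2.82) and Il11 (2.62 CPM per kilobase). From Il6ra to Socs3, from Ccl2 to Lifr and from Il6 to Il11, neighbours did not differ beyond their spread. In 12w Tg7 islets it was Socs3 (25.9), Il6ra (24.5), Stat3 (22.2), Il6st (10.5), Ccl2 (9.92), Il6 (7.86), Lifr (3.98), Osmr (3.41), Lif (1.47) and Il11 (0.798). There, Socs3 and Il6ra lay within their spread, as did Il6st, Ccl2 and Il6, and Lifr and Osmr. Il6 stood above Lifr in 12w Tg7 islets, whereas Lifr stood above Il6 in each of the other groups.

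For each member the 3 tested genes with the most similar profile were found by Pearson's r of log2 CPM over the 12 libraries, which share their groups, so that r describes the group pattern. For Il6 they were Eif2b2 (0.966), Basp1 (0.956) and Bcl3 (0.946), the last an atypical IκB protein that is also a STAT3 target. For Osmr they were the matrix genes Fbln2 (0.983), Col6a1 (0.983) and Col6a2 (0.979). Lifr was closest to Spc25 (0.989), Adora1 (0.981), an adenosine receptor, and Trpm5 (0.979), a cation channel. Ccl2 was closest to BC052040 (0.970), Fabp5 (0.969) and Pdlim4 (0.966), and Lif to Fzr1 (0.964), Reep4 (0.957) and Spred1 (0.955). Socs3 was closest to Tspan17 (0.958), Crlf2 (0.945) and Tgfb3 (0.939). The remaining members reached 0.985 for Il6ra (Neurl1a, then Nalcn and Cyp4v3), 0.983 for Il6st (Hipk1, then Cbfa2t2 and Mgat5), 0.970 for Il11 (Sash1, then Rin1 and Kdm5d) and 0.920 for Stat3 (Nol6, then Rrp12 and Fbxw2).

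Other genes of the pathway were read from 6 lists of 89 genes, of which 69 were tested. At 2w, 12 rose and 3 fell in Tg7 islets, and at 12w, 15 rose and 5 fell (edgeR's quasi-likelihood test, Benjamini-Hochberg adjusted p below 0.05). Over all tested genes the shares that rose and fell were 6.07% and 4.55% at 2w, and 12.5% and 11.2% at 12w. The median log2 fold change of the tested genes was 0.34 at 2w and 0.20 at 12w. The balance at 12w depended on the scale, since with library size alone 31 rose and 0 fell, and that scale moved the median of all tested genes by 0.44 at 12w and 0.17 at 2w.

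Of the 9 other family ligands, 4 were tested, none passed at 2w and 1 rose at 12w. Clcf1, a cytokine that binds the ciliary neurotrophic factor (CNTF) receptor, was at 0.630, 1.27 and 1.07 CPM in 12w Wt islets and at 2.59, 3.04 and 2.69 CPM in 12w Tg7 islets (log2 fold change 1.44 ± 0.31, adjusted p 0.00410). The groups did not overlap. Oncostatin M (Osm), the ligand of the Osmr receptor, was at or below 1.07 CPM in every library, with 0 to 20 reads, and was not tested.

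Of the 7 other receptors and shedding enzymes, 4 were tested, and Cntfr, the CNTF receptor, passed at both ages in opposite directions. It was at 55.1, 38.7 and 44.5 CPM in 2w Wt islets and at 33.3, 25.1 and 25.7 CPM in 2w Tg7 islets. The 12w levels were 54.6, 65.3 and 53.6 CPM in Wt islets and 69.5, 95.9 and 81.1 CPM in Tg7 islets. It fell at 2w (log2 fold change -0.72 ± 0.17, adjusted p 0.0154) and rose at 12w (0.51 ± 0.17, adjusted p 0.0409), without overlap at either age, and it was the only listed gene whose effect differed between ages (1.22 ± 0.24, adjusted p 0.0230 in edgeR). At an unadjusted p below 0.05, 15 of the 69 genes did. Il11ra1, the receptor of IL-11, gave 0.32 ± 0.21 at 2w and -0.34 ± 0.21 at 12w, and passed at neither age.

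Among the 10 other JAK-STAT transducers 1 rose at 2w, and 1 rose and 3 fell at 12w. Gab1, a docking protein downstream of gp130, rose at both ages (0.60 ± 0.15, adjusted p 0.0229, and 0.48 ± 0.16, adjusted p 0.0409). Ptpn11, a phosphatase that links gp130 to the MAP kinase pathway, fell at 12w (-0.72 ± 0.20, adjusted p 0.0189), as did the adaptor Shc1 (-0.32 ± 0.11, adjusted p 0.0393, but 0.12 with library size alone).

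Among 12 other JAK-STAT inhibitors 1 rose at 2w, and 2 rose and 1 fell at 12w. Cish, a SOCS family inhibitor known as a target of STAT5, was at 31.3, 29.2 and 31.0 CPM in 2w Wt and 43.0, 53.0 and 45.7 CPM in 2w Tg7 islets. At 12w it was at 20.7, 23.2 and 26.5 CPM in Wt and 53.7, 44.7 and 47.9 CPM in Tg7 islets, again without overlap. It rose at both ages (0.63 ± 0.13, adjusted p 0.00787, and 1.05 ± 0.13, adjusted p 9.3e-05). At 12w Ptpn1, a phosphatase that acts on Janus kinases, rose (0.39 ± 0.11, adjusted p 0.0179) and Socs4 fell (-0.71 ± 0.17, adjusted p 0.00832). Socs1 was between 0.533 and 2.51 CPM in all libraries and passed at neither age.

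Of 28 STAT3 and acute phase targets, 23 were tested, and 5 rose and 1 fell at 2w, 7 rose and 1 fell at 12w. Lower in Tg7 islets without overlap at 2w were Ccnd1 (172 to 200 CPM in Wt, 122 to 137 CPM in Tg7) and Vegfa (443 to 573 CPM in Wt, 297 to 404 CPM in Tg7). At 12w Mcl1 was lower without overlap (153 to 157 CPM in Wt, 114 to 121 CPM in Tg7). At 2w Lrg1, an acute phase glycoprotein, rose most. It was at 0.237, 0.958 and 0.319 CPM in Wt islets and at 33.5, 3.05 and 3.73 CPM in Tg7 islets (4.78 ± 0.92, adjusted p 0.00496), with the highest value in Tg7 2w replicate 1 and a log2 fold change of 2.79 without both libraries that stand apart. Lcn2, a siderophore-binding acute phase protein, was at 0.771, 0.663 and 0.213 CPM in Wt and at 6.03, 5.39 and 6.36 CPM in Tg7 islets (3.44 ± 0.50, adjusted p 0.000724), a tight group that did not rest on 1 library. The 2w Wt libraries together held 23 reads of Lrg1 and 26 of Lcn2. Serpina3n, a protease inhibitor (2.03 ± 0.49, adjusted p 0.0175), Timp1, an inhibitor of matrix metalloproteinases (1.75 ± 0.42, adjusted p 0.0168), and Myc (0.85 ± 0.19, adjusted p 0.0111) rose as well.

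At 12w other targets led the same list. Lbp, the lipopolysaccharide-binding protein, was at 0.630, 0.238 and 0.400 CPM in Wt and 2.59, 2.38 and 2.12 CPM in Tg7 islets (2.52 ± 0.48, adjusted p 0.00198). Its Wt level rested on 14 reads in all, and 0.238 CPM is the floor of that library (3 counts). Steap4, a metalloreductase, rose from 1.39, 2.38 and 2.00 CPM to 8.35, 10.6 and 7.95 CPM (2.2 ± 0.31, adjusted p 0.000207). Il4ra, the α-chain of the interleukin-4 receptor (1.30 ± 0.22, adjusted p 0.000782), the fibrinogen chain Fgb (1.28 ± 0.43, adjusted p 0.0421) and the AP-1 subunit Junb (1.08 ± 0.32, adjusted p 0.0243) also rose. Bcl3, the gene with a profile close to that of Il6, rose at 12w (1.06 ± 0.20, adjusted p 0.00160) and gave 0.49 ± 0.19 at 2w (adjusted p 0.122). The effect at 12w minus that at 2w was -2.47 ± 0.68 for Lcn2 (adjusted p 0.108) and -4.38 ± 1.23 for Lrg1 (adjusted p 0.114), and neither passed, although Lcn2 did in DESeq2 and Lrg1 with no filter. The intestinal and pancreatic acute phase genes Reg3a and Reg3g had no count in any library, and Reg3b had 7 counts in all.

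Of 23 chemokine and NF-kB response genes, 16 were tested, and 5 rose and 1 fell at 2w, 3 rose and 0 fell at 12w. The adhesion molecule Icam1 was at 9.61, 6.92 and 7.45 CPM in 2w Wt and 28.8, 14.1 and 19.1 CPM in 2w Tg7 islets, and at 6.05, 9.53 and 5.13 CPM in 12w Wt and 27.6, 21.7 and 33.6 CPM in 12w Tg7 islets. It rose at both ages (1.37 ± 0.28, adjusted p 0.00738, and 2.00 ± 0.29, adjusted p 0.000277), with no overlap. Vcam1, another adhesion molecule, rose at both ages too (1.90 ± 0.53, adjusted p 0.0367, and 2.85 ± 0.61, adjusted p 0.00403), and its 2w value was 0.84 without both libraries that stand apart.

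At 2w Il1rn, which encodes the antagonist of the interleukin-1 receptor, rose from 1.60, 0.368 and 0.851 CPM to 10.0, 6.37 and 3.23 CPM (2.77 ± 0.54, adjusted p 0.00557). Il1b, which encodes interleukin-1β, fell from 5.99, 4.79 and 3.25 CPM to 1.23, 1.82 and 0.596 CPM (-1.96 ± 0.43, adjusted p 0.0102). The agonist and the antagonist of the same receptor thus moved in opposite directions at 2w. At 12w Il1b gave 0.08 and Il1rn 0.98, and neither passed. The NF-kB inhibitor Tnfaip3 rose at 2w (1.07 ± 0.27, adjusted p 0.0242), and Cx3cl1, a chemokine of endothelial and neural cells, rose at 12w (0.68 ± 0.18, adjusted p 0.0125).

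**Figure D3:**
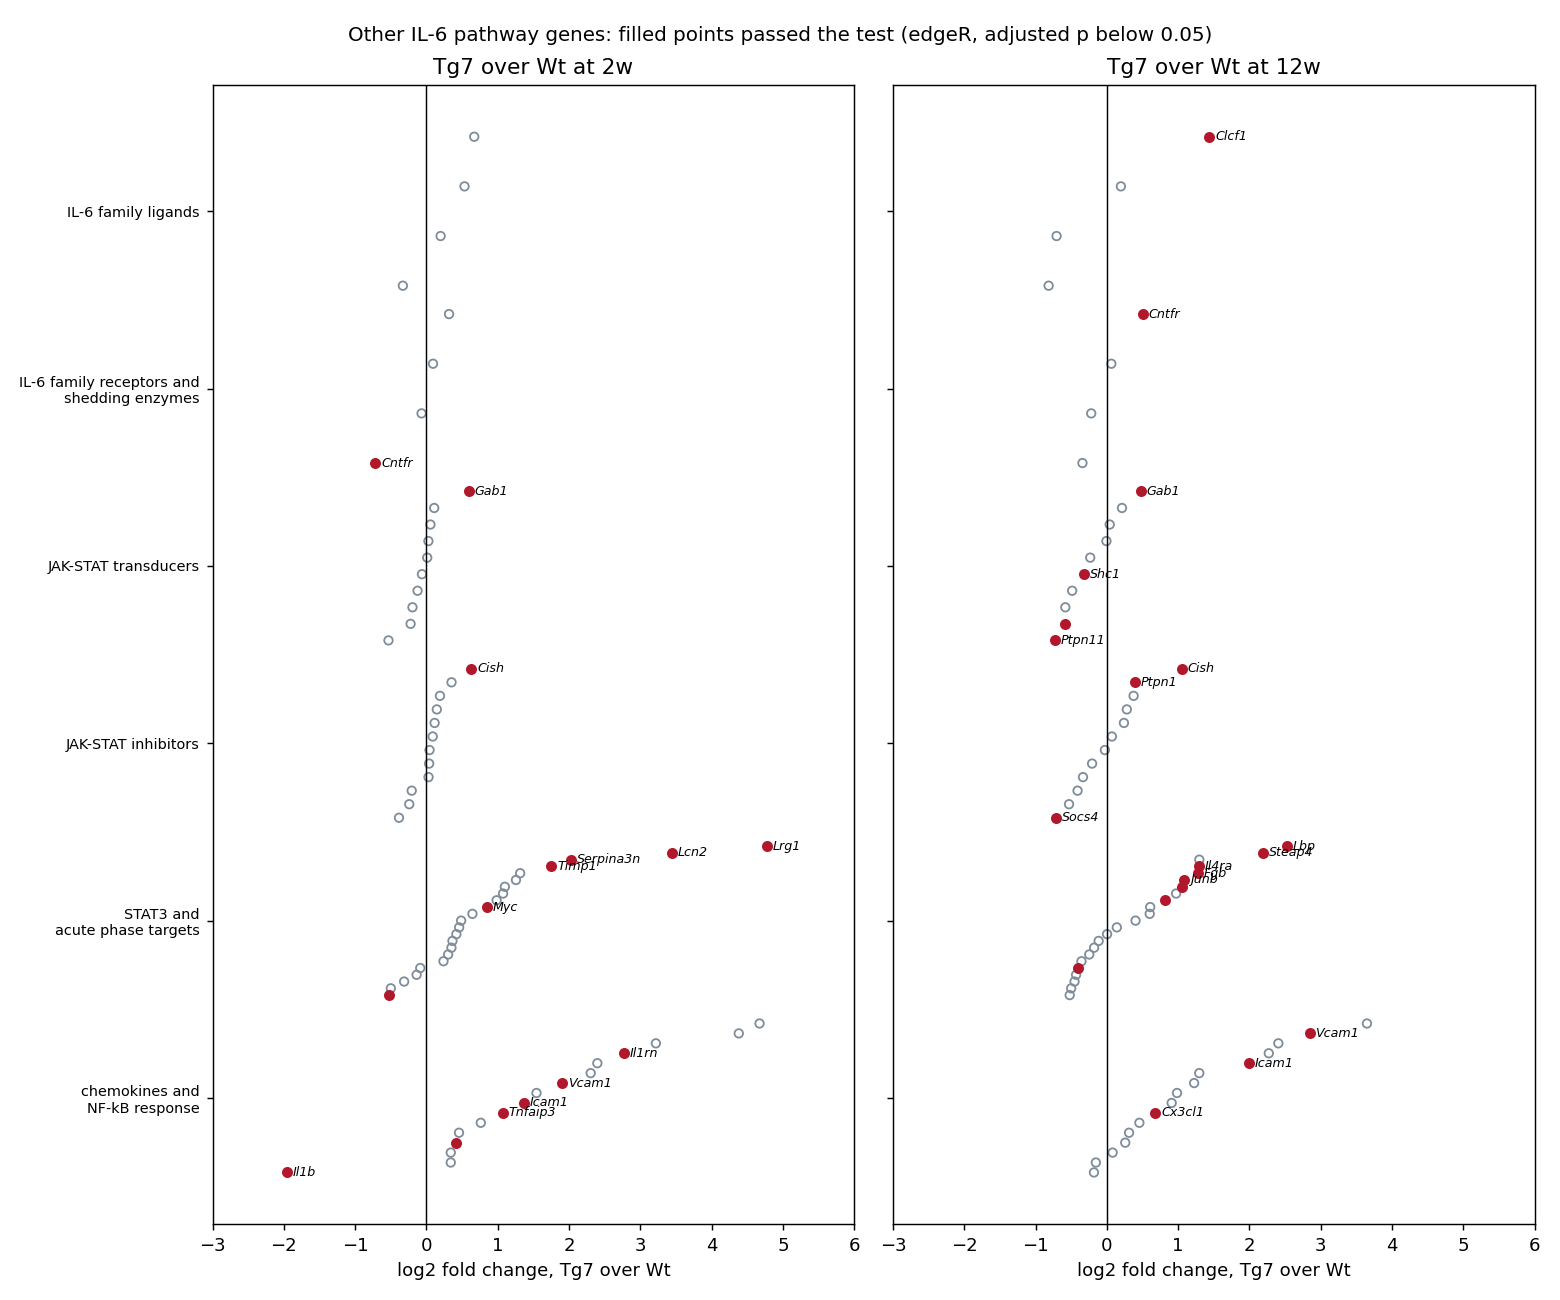
Log2 fold change of Tg7 over Wt at 2w and 12w for the 69 tested genes of the 6 pathway lists, 1 point per gene, spread vertically within each list. Filled points passed the test (12 rose and 3 fell at 2w, 15 rose and 5 fell at 12w), and the named ones are those described in the text. Among the genes that passed, Lrg1 and Lcn2 lead at 2w, Vcam1 and Lbp at 12w, and Cntfr changes side.

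When single libraries of the same age were left out, Cish, Icam1, Lrg1, Lcn2, Il1rn and Il1b at 2w, and Clcf1, Cish, Socs4, Lbp, Steap4, Il4ra, Icam1 and Vcam1 at 12w, passed every time. At 2w Vcam1 (0.85 to 2.28) and Tnfaip3 (0.60 to 1.30) did not pass without any 1 of the 3 Wt libraries or Tg7 replicate 1, nor did Timp1 (1.41 to 2.07) and Serpina3n (1.56 to 2.37) without any 1 of Wt replicates 1 and 3 and Tg7 replicate 1. Gab1 at 2w was lost without Wt replicates 1 or 3 or Tg7 replicates 2 or 3, Myc without Wt replicate 3, and Cntfr without Wt replicate 1 or Tg7 replicates 2 or 3. At 12w Cntfr (0.38 to 0.63) and Gab1 (0.36 to 0.61) were lost without Wt replicates 1 or 4 or Tg7 replicates 2 or 3, and Fgb and Shc1 without any library but Wt replicate 1. Ptpn11 (-0.97 to -0.38) was lost without any 1 Tg7 library, Junb (0.71 to 1.68) without Wt replicate 4 or Tg7 replicates 1 or 3, Ptpn1 without Wt replicate 1 or Tg7 replicate 2, and Cx3cl1 without Tg7 replicate 3. Other settings ended some of these calls. With library size alone, Cntfr at 2w and Socs4 (-0.28), Ptpn11 and Shc1 at 12w did not pass. With the libraries of the contrast alone, Vcam1 at 2w and Cntfr, Gab1, Ptpn1, Ptpn11, Junb and Shc1 at 12w did not pass. With the replicate number as a block, Cntfr, Gab1, Ptpn11, Junb, Fgb, Shc1 and Cx3cl1 at 12w did not pass. With no filter Gab1, Ptpn1 and Shc1 at 12w were lost, and with upper-quartile factors Shc1. For Lrg1 DESeq2 gave no adjusted p.

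Between 2w and 12w, 0 of the 69 genes rose and 8 fell in Wt islets, and 2 rose and 9 fell in Tg7 islets. Of all tested genes, 7.9% rose and 7.91% fell in Wt islets, and 7.02% rose and 6.01% fell in Tg7 islets. Without both libraries that stand apart, 3 rose and 10 fell in Wt islets, and 9 rose and 8 fell in Tg7 islets. In that fit more of all tested genes passed too, 4383 against 2524 in Wt and 2793 against 2079 in Tg7 islets.

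Markers of other islet cell types moved with several of these genes. The summed level of 10 stellate and fibroblast markers, among them Pdgfra, Pdgfrb, Col1a1 and Dcn, was 328 to 476 CPM in 2w Wt, 518 to 685 CPM in 2w Tg7, 91.1 to 152 CPM in 12w Wt and 394 to 416 CPM in 12w Tg7 islets. Of these markers 6 of 10 rose at 2w and 9 of 10 at 12w, with Col1a1 at 1.15 ± 0.20 (adjusted p 0.00230) and 4.0 ± 0.24 (adjusted p 1.65e-07). The sum of 9 endothelial markers was 920 to 1180 CPM in 2w Wt, 1025 to 1136 CPM in 2w Tg7, 405 to 532 CPM in 12w Wt and 826 to 884 CPM in 12w Tg7 islets, and 0 of 9 rose at 2w and 8 of 9 at 12w, Pecam1 by 1.09 ± 0.15 (adjusted p 0.000148). The part of these cell types in the levels of Il6, Lif, Osmr, Ccl2, Icam1 and Vcam1 was not tested.

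The sum of 12 macrophage markers was 50.5 to 69.8 CPM in 2w Wt, 61.8 to 109 CPM in 2w Tg7, 98.2 to 110 CPM in 12w Wt and 86.3 to 90.9 CPM in 12w Tg7 islets. Lyz2 alone rose at 2w (2.88 ± 0.67, adjusted p 0.0140), and at 12w none rose and Csf1r fell (-0.72 ± 0.17, adjusted p 0.00707). Cd163 was listed at 0 in all libraries of 3 groups. Of the 8 neutrophil markers 6 or more were at 0 in each group, with sums of 0 to 0.267 CPM. In Tg7 2w replicate 1 the summed level of the lymphocyte markers, Lyz2, Pdgfra (17.1 against 1.62 and 5.56 CPM in the other 2w Tg7 libraries), Il6, Lif, Il11, Osmr, Il6st and Ccl2 were all the highest of the group. Among the other members, Lifr and Stat3 were also highest there, Il6ra lay in between and Socs3 was lowest.

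Other cell types of the pancreas were read in the same way. The sum of 6 Schwann cell markers was 14.8 to 24.6 CPM in 2w Wt, 17.2 to 36.0 CPM in 2w Tg7, 9.07 to 19.3 CPM in 12w Wt and 20.9 to 25.5 CPM in 12w Tg7 islets. None of them passed at 2w, and 3 of 6 rose at 12w (Sox10, Ngfr and Cdh19). The sum of 6 ductal markers was 119 to 141 CPM in 2w Wt, 148 to 200 CPM in 2w Tg7, 164 to 189 CPM in 12w Wt and 260.3 to 546 CPM in 12w Tg7 islets, and of the 5 tested 0 passed at 2w and 2 (Spp1, Muc1) rose at 12w. Most of the 12w Tg7 sum was Spp1 (200 to 490 CPM). Of the tested ones 4 were higher and 1, Krt19, was lower in 12w Tg7 than in 12w Wt islets. The 8 acinar markers summed to 9.61 to 11.8 CPM in 2w Wt, 21.6 to 27.4 CPM in 2w Tg7, 14.5 to 19.4 CPM in 12w Wt and 14.7 to 15.1 CPM in 12w Tg7 islets. Cela1 was the largest part in every library, at 8.54, 10.4 and 10.5 CPM in 2w Wt and 11.5, 14.6 and 25.5 CPM in 2w Tg7 islets. Ctrb1 was at 8.80, 4.35 and 0 CPM in the same 2w Tg7 libraries. Of 7 tested, 1 (Cpb1) rose at 2w and 0 passed at 12w. Cpb1 had no read in 2w Wt and 52, 14 and 0 reads in 2w Tg7 islets, so its groups overlapped. The 5 mesothelial markers summed to 91.7 to 133 CPM in 2w Wt, 28 to 38 CPM in 2w Tg7, 34.7 to 56.2 CPM in 12w Wt and 1.16 to 1.72 CPM in 12w Tg7 islets. Msln, the only one tested, made up nearly all of the Wt sums and fell at both ages. Upk3b, Wt1, Upk1b and Lrrn4 were at or below 0.646 CPM in every library, and Wt1 had reads only in Tg7 libraries. The sums therefore follow Msln and do not describe the other mesothelial markers. Among the defining markers, Amy2a5 was at 0 in all 4 groups and Lrrn4 in 3 of them. The part of these cell types in the members' levels was not tested.

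**Figure D4:**
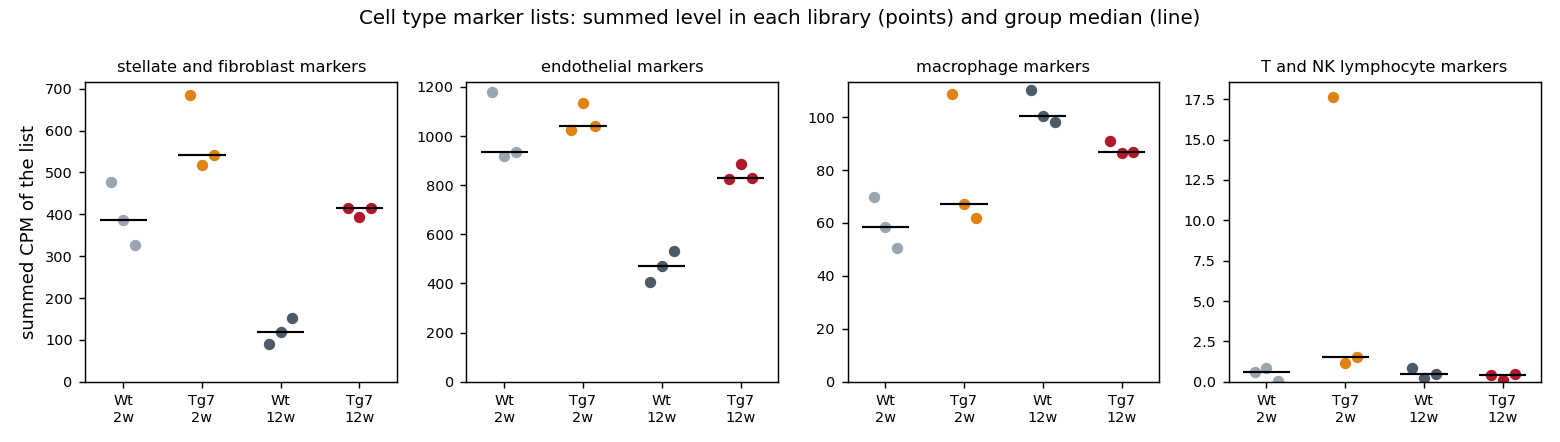
Summed CPM of 4 marker lists in each library (points) with the group median (line), on linear axes from 0. Stellate and fibroblast markers and endothelial markers are lowest in 12w Wt islets, macrophage markers lie between 50.5 and 110 CPM, and lymphocyte markers are near 0 except for 17.7 CPM in Tg7 2w replicate 1.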

How the data were processed

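Islet RNA of 4 groups (Wt and Tg7 at 2w and 12w, 3 libraries each) was analysed from the table of raw read counts per Ensembl gene that the authors deposited, and all its columns were used. According to the study's methods, RNA from pools of at least 3 animals went into NEB Ultra II libraries and paired-end HiSeq2500 sequencing. Reads were trimmed by Trimmomatic, and TopHat2 2.0.11 placed them on mm9 (NCBIM37) before featureCounts assigned them to genes. The submitters' processing notes also name bcl2fastq 2.20.0. For featureCounts neither version nor strand setting is given in the sources used here, so reads of overlapping antisense genes cannot be told apart.

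Genes passing filterByExpr (minimum count 10, minimum total 15) were scaled with TMM factors (0.684 to 1.19) and fitted in edgeR 4.0.16 (glmQLFit, glmQLFTest) as 4 group means over all 12 libraries, with Benjamini-Hochberg adjustment over 15961 genes and a threshold of 0.05. The SE was taken as the log2 fold change over the root of the F statistic. CPM carry no prior count, fitted log2 fold changes kept edgeR's default, and the log2 CPM behind the correlations used a prior count of 2. Symbols and exon lengths came from GENCODE vM1 on the files' build, and promoter and miRNA sequences from RefSeq on GRCm38.p6, which were matched by name only. The code was tested on simulated counts with 200 planted changes.

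The members and lists were chosen with earlier results of these data known. Named genes were all members, the 5 largest changes per list and age among genes past the threshold without overlap of groups, the 3 nearest genes of each member, and defining or absent markers. Others named in the text (Osm, Il11ra1, Socs1, Reg3a, Reg3b, Reg3g, Ccnd1, Vegfa, Mcl1, and single stress genes and cell type markers) were added after their values were seen. Replicates differed beyond sampling noise (chi-square per degree of freedom at least 6.91). Same-numbered Wt and Tg7 libraries were not treated as pairs. Alternatives were DESeq2 1.42.0, upper-quartile factors, library size alone, no filter, a stricter filter (50 counts in 3 libraries), the libraries of each contrast alone, the replicate number as a block, and each library left out. Floors (3 counts) and counts cover counting error only. Software was R 4.3.3 and Python 3.11.15.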

Additional observations from a re-analysis of the deposited data

Results flagged for a closer look

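Cntfr, the receptor for ciliary neurotrophic factor, was the 1 result that stood out by the difference of its effects between ages. Tg7 islets had less Cntfr than Wt islets at 2w and more at 12w, and the effect at 12w minus that at 2w was 1.22 on the log2 scale (adjusted p 0.0230 in edgeR's quasi-likelihood test). All 3 Tg7 libraries lay on 1 side of all 3 Wt libraries at each age. The difference stayed between 1.08 and 1.38 when any single library was left out, but it was no longer past the threshold in 7 of these 12 fits. Without both libraries that stand apart it was 1.32.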

How the results depend on the processing

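Limits of depth and design come first. The members Il6, Il11 and Ccl2, and Lif at 12w, rested on few reads per library in Wt islets. So did Osm, Lbp, Lrg1, Lcn2 and other scarce pathway genes. The n was 3 pools per group, and a left-out library leaves a group of 2 that is assumed to vary like the others. Over single libraries left out, the count of pathway genes past the threshold was 7 to 20 at 2w (15 with all libraries), 12 to 22 at 12w (20), 0 to 3 for the difference between ages (1), 5 to 10 for age in Wt (8) and 7 to 17 for age in Tg7 islets (11). The lowest counts came without Wt 2w replicate 3 at 2w (7, and 8 without Wt 2w replicate 1), without Tg7 12w replicates 2 or 3 at 12w (12 each), and without Wt 2w replicate 2 for age in Wt (5). Over all tested genes the calls fell in these fits too, from 1695 to 754 at 2w (912 without Wt 2w replicate 1). They fell from 3772 to 2417 and 2418 at 12w, and from 2524 to 1336 for age in Wt. Without Tg7 12w replicate 2 the count for age in Tg7 was 7, and without Wt 12w replicate 4 it was 17. Of all tested genes 1210 and 3329 passed there, against 2079 with all libraries. The difference between ages lost its 1 gene without 7 of the 12 libraries. The members past the threshold numbered 2 to 5 at 2w (4), 5 to 7 at 12w (6), 0 to 2 for the difference (2), 2 to 5 for age in Wt (4) and 0 to 6 for age in Tg7 islets (1). Without Wt 2w replicate 3 the members fell to 2 both at 2w and for age in Wt, where the calls over all tested genes fell to 754 and 1349. With library size alone, 31 pathway genes passed at 12w, 17 for age in Wt and 3 for the difference, where 5558, 4120 and 347 of all tested genes did. On that scale 1 member passed for the difference, and Shc1 at 12w reversed to 0.12. This scale shifts the median of all genes. DESeq2 gave 4 pathway genes for the difference and 3 members for age in Tg7, no filter gave 4 and 3, a stricter filter 2 members and the libraries of the contrast alone 6 members for age in Tg7. Over all genes the difference passed for 566 in DESeq2 and 420 with no filter, against 188 in the main fit. Age in Tg7 passed for 2691, 2085, 2018 and 3441 in these settings, in that order. The correlation of same-numbered Wt and Tg7 residuals was -0.167 to -0.0112, so the numbers were not taken as pairs. A replicate block gave 2 pathway genes for the difference and 5 members for age in Tg7, where 502 and 3088 of all tested genes passed. The block takes Wt 12w replicate 4, the only library of that number, out of the contrasts. With both libraries that stand apart left out, added after seeing the data, 13 pathway genes passed for age in Wt, 17 for age in Tg7 and 2 for the difference, and 4 members for age in Tg7. Of all tested genes 4383, 2793 and 1052 passed for age in Wt, age in Tg7 and the difference in that fit. Among single members, Il6 at 2w was past the threshold under 9 of 20 alternatives and not without 9 of the 12 libraries taken singly, with the libraries of the contrast alone or without both libraries that stand apart (1.13). Ccl2 at 2w was not past it without Wt 2w replicate 3, nor Socs3 at 12w without Tg7 12w replicate 1, with the block or with the libraries of the contrast alone. Il6ra at 12w passed under 6 of 7 other settings (0.62 to 1.13). Lif and Lifr at both ages and Il6, Osmr and Ccl2 at 12w kept their side of the threshold under every alternative run. Apart from the scale, the left-out libraries and the smaller tables, the cause of these changes was not tested.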
